A study of Homo sapiens with 6 samples.

Results

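The 46 genes described here encode proteins of DNA replication, of the step from G1 into S phase and of mitosis, and they were read by symbol from 58364 rows of an expression table of human endothelial-type cells with and without the homeobox gene MSX2. Of these genes, 21 belong to S phase and the G1/S step, 5 are D cyclins or CDK inhibitors that act in G1, and 20 are genes of G2 and mitosis. Each symbol stood on 1 row, and all 46 passed the filter on low expression (a mean of at least 0.5 FPKM) that left 15895 genes to test. FPKM counts the sequenced fragments of a gene per kilobase of its length and scales them to the library, so levels given in FPKM can be compared between genes.

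The cells came from the human embryonic stem cell line H1 at day 8 of hematopoietic differentiation in a defined medium, when endothelial cells begin to turn into blood progenitors. There were 2 WT libraries and 4 MSX2-/- libraries, the latter from 2 single-cell clones, 1# and 2#, made by lentiviral CRISPR/Cas9 with puromycin selection and a guide to the second exon. The sources name CD31+ cells (CD31 is an endothelial surface protein) for the MSX2-/- libraries, and the study's text names them for WT too. WT, 1# and 2# each had a library numbered 1 and a library numbered 2, and the labels give the first a set letter F and the second a set letter S without saying what the letters stand for or whether libraries of the same number shared a culture or a day. P-values therefore measure the spread between these libraries. In the comparisons of MSX2-/- with WT the 4 MSX2-/- libraries counted as separate samples, although they come from 2 clones. Those p-values do not measure the spread between clones.

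The cell cycle runs from G1, in which D cyclins with CDK4 or CDK6 phosphorylate RB and free the E2F factors, through S phase, in which the MCM helicase and the polymerases copy the DNA, to G2 and mitosis, in which cyclin B with CDK1 and the Aurora and Polo kinases drive the separation of the chromosomes. CDKN1A (p21) and CDKN1B (p27) inhibit the cyclin-dependent kinases, and CDKN1A is a well-known target of p53. Transcripts of the S phase genes peak at G1/S under E2F, and those of the mitotic genes peak in G2 and M under B-MYB, FOXM1 and the MuvB complex, which binds a promoter element called CHR. In bulk RNA a higher level of such genes may be more cells in a phase or more RNA per cell, and the data do not separate them.

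The promoters of the S phase and of the mitosis genes held different motifs, and a few are shown here as background. They are read from reference sequence and not from these data. Promoters of 300 bases, from 250 before to 50 after the RefSeq start on GRCh38.p14, were at hand for 36 of the 46 genes (18 S phase, 3 G1, 15 mitosis). Searched on both strands were CHR (TTTGAA), the CCAAT box (CCAAT) and E2F sites (TTTGGCGC, TTTCGCGC, TTTCCCGC and TTTGCCGC). An E2F site stood in 12 of 18 S phase promoters (66.7%) and in 1 of 15 mitosis promoters (6.7%), beside 3.3% of all 35116 promoters. A CHR stood in 9 of 15 mitosis promoters (60.0%) and in 1 of 18 S phase promoters (5.6%), beside 15.2% of all. The CCAAT box stood in 13 of each group (72.2% and 86.7%), beside 34.6% of all. None of the 3 G1 promoters at hand held a CHR or an E2F site, and 1 held a CCAAT box. The 110 bases before the start are printed for 3 genes of each kind, 5′ to 3′ on the gene's strand, with each match to a motif or to its reverse complement in capitals. CDC20 (chr1:43358871-43358980, plus strand), KIF11 (chr10:92593020-92593129, plus strand) and MKI67 (chr10:128126424-128126533, minus strand) are mitotic genes with both a CHR and a CCAAT box, and in MKI67 a CHR and a CCAAT box share bases. PCNA (chr20:5126623-5126732, minus strand), MCM6 (chr2:135876444-135876553, minus strand) and E2F1 (chr20:33686386-33686495, minus strand) are S phase genes with E2F sites, and in MCM6 the printed E2F sites overlap. The 300 bases of MCM6 hold 4 E2F matches.
CDC20: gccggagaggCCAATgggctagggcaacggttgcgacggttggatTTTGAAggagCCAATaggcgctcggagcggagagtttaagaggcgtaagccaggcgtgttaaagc
KIF11: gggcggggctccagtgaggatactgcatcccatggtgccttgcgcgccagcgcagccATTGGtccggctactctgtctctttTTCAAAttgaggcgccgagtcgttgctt
MKI67: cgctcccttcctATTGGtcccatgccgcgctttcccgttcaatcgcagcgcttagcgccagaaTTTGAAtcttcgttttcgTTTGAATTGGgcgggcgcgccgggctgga
PCNA: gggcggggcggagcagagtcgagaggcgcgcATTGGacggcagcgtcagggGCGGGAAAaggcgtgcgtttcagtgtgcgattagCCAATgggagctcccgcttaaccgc
MCM6: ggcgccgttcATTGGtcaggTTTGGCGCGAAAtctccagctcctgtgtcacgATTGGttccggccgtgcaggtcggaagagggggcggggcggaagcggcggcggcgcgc
E2F1: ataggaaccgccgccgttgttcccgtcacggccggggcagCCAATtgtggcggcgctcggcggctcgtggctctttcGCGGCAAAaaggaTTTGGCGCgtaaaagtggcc
A match describes the letters in this window and is not a measured binding site.

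**Figure D1:**
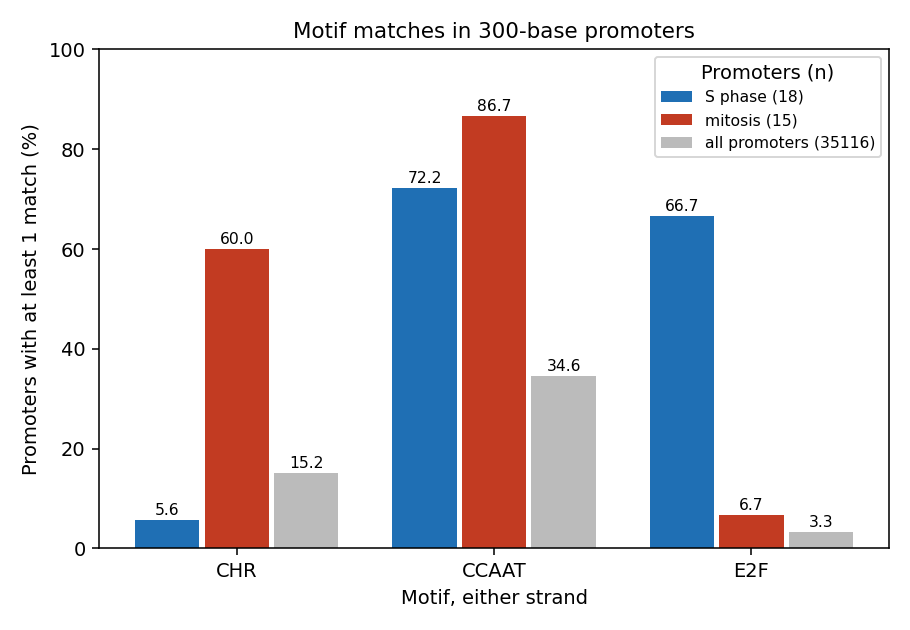
Share of promoters (y axis, percent) with at least 1 match to CHR, CCAAT or an E2F site on either strand (x axis), for 18 S phase promoters, 15 mitosis promoters and all 35116 promoters. E2F sites stand in 66.7% of the S phase promoters and CHR in 60.0% of the mitosis promoters.

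The summed FPKM of a library lay between 555286 and 617120. In WT, 1# and 2# alike it was higher in the library numbered 2 than in that numbered 1. Genes at 1 FPKM or more numbered 13870, 14220 and 14222 in WT, 1# and 2# of number 1. In number 2 they were fewer, at 13455, 13664 and 13366. The part of this count in the results below was not tested. The depth relative to WT replicate 1, read from the values of genes under 0.1 FPKM, lay between 1 and 1.18 without following genotype or number. The number of reads is unknown. MSX2 itself measured 3.64 and 1.44 FPKM in WT and 18, 5.63, 31.8 and 6.69 FPKM in the MSX2-/- libraries. Its RNA was thus higher in every MSX2-/- library than in WT, and lower in number 2 than in number 1 of the same cells. A small edit need not remove the RNA, so its level does not check the labels. Why the RNA was higher was not tested. All 10 endothelial markers were at 1 FPKM or more in all 6 libraries, with a summed FPKM of 2542 to 2662 in WT and 1587 to 1945 in MSX2-/- cells. Summed FPKM was 93.7 to 139 in WT and 196 to 271 in MSX2-/- for 10 hematopoietic markers, 128 to 159 and 260 to 634 for 12 erythroid markers, 294 to 345 and 509 to 595 for 10 mesenchymal markers, and 111 to 126 and 133 to 148 for 10 pluripotency markers. Of these lists, 9, 9, 6 and 4 genes were at 1 FPKM or more in all libraries. The sums rest on few genes: mean COL1A1 was 41.8 FPKM in WT and 198 in MSX2-/-, while COL1A2 (146 and 140) and COL3A1 (42.0 and 29.8) were not higher. NANOG, SOX2 and PRDM14 were under the filter. Some markers also differed between replicate numbers. In the number contrast of limma described below, 4 of 11 tested erythroid markers were called lower in number 2 and 1 higher, 3 of 9 mesenchymal markers lower and 0 higher, 3 of 9 hematopoietic and 3 of 10 endothelial markers higher and 0 lower, and 2 of 7 pluripotency markers higher and 1 lower. Of all tested genes, 18.9% were called lower and 15.6% higher, so counts from such short lists are not a result about a marker type. Summed erythroid FPKM was 159, 460 and 634 in WT, 1# and 2# of number 1 and 128, 266 and 260 in number 2, and summed hematopoietic FPKM was 93.7, 196 and 224 against 139, 266 and 271. The erythroid and hematopoietic sums thus moved with genotype and with number, and the part of the markers in the results below was not tested.

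Most of the cell-cycle genes were higher in the libraries numbered 2, in WT and in MSX2-/- cells. In limma's test with genotype in the model, 32 of 46 genes were higher in the libraries numbered 2 at an adjusted p under 0.05 and 3 were lower, beside 15.6% of all tested genes higher and 18.9% lower. Against that background the list lay on the higher side, with a median log2 difference of 0.62, while the median of all genes was −0.03. In MSX2-/- against WT without the replicate number, limma called 0 of 46 genes, beside 0.963% of all genes called higher and 0.321% lower. Of the 46, 2 had an unadjusted p under 0.05, beside 1873 of all 15895 genes. In libraries numbered 2 against 1, 33 genes lay entirely above and 3 entirely below, beside 18.8% and 22.7% of all tested genes. In MSX2-/- against WT, 3 genes lay entirely above (CDT1, CCNE2 and CCND3) and 3 entirely below (CDC45, POLA1 and CDKN1B), beside 12.1% and 9.19% of all.

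**Figure D2:**
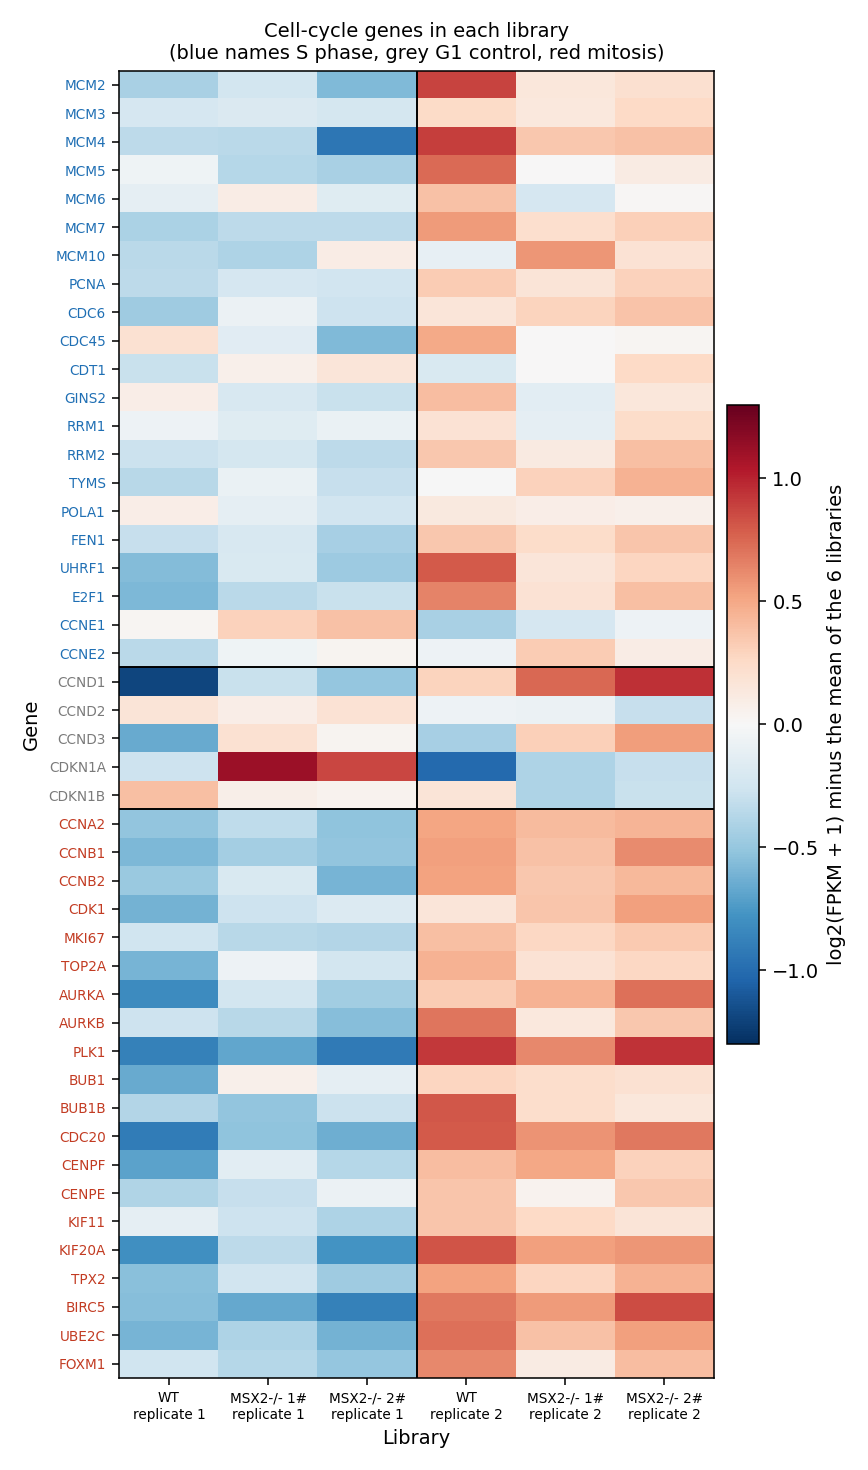
Each row is 1 of the 46 genes and each column 1 of the 6 libraries (x axis), with those numbered 1 left of the black line. Colour gives log2(FPKM + 1) minus the gene's mean over the 6 libraries, and every mitosis gene is above its mean right of the line and below it left of the line, apart from BUB1 in 1# replicate 1.

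All 20 mitosis genes were higher in the libraries numbered 2 than in every library numbered 1, and 18 of them passed the test, with a median log2 difference of 0.82. The S phase genes had a median of 0.50, and 12 of 21 passed higher and 1 lower. The difference between both medians was not tested. In the following, a gene's 3 values are in the order WT, 1# and 2#, differences are log2(FPKM + 1) of number 2 minus number 1 ± SE, and adjusted p-values are from limma with Benjamini-Hochberg adjustment over all 15895 genes.

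PLK1, the Polo-like kinase of mitotic entry and spindle assembly, measured 15.0, 17.4 and 14.5 FPKM in the libraries numbered 1 and 54.5, 44.2 and 55.2 FPKM in those numbered 2. Its levels were tight within each number and did not overlap, and the difference of 1.65 ± 0.12 (3.28-fold, adjusted p = 0.000987) was the largest of the 46 genes. BIRC5 (survivin), which guides Aurora B to the centromere, measured 9.75, 8.92 and 7.54 FPKM and then 24.3, 22.1 and 27.4 FPKM, a rise of 1.40 ± 0.12 (adjusted p = 0.00132). CDC20, the activator of the anaphase-promoting complex, whose CHR and CCAAT boxes are printed above, went from 14.9, 19.7 and 18.3 FPKM to 50.8, 43.8 and 47.0 FPKM, a rise of 1.38 ± 0.12 (adjusted p = 0.00130). In all 3 genes the lowest value of number 2 was more than the highest value of number 1 in any genotype.

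KIF20A, a kinesin of cytokinesis, measured 4.23, 6.18 and 4.32 FPKM against 15.1, 12.2 and 12.6 FPKM, and it rose by 1.28 ± 0.16 (adjusted p = 0.00322). UBE2C, the ubiquitin-conjugating enzyme of the anaphase-promoting complex, measured 25.2, 29.3 and 25.2 FPKM against 64.6, 51.0 and 56.7 FPKM, and it rose by 1.08 ± 0.11 (adjusted p = 0.00188). Thus the substrate-recruiting subunit CDC20 and the E2 enzyme that act on the same ligase both had higher RNA in number 2. CCNB1, cyclin B1, measured 19.5, 21.7 and 20.6 FPKM against 43.7, 39.1 and 46.4 FPKM, a rise of 1.02 ± 0.09 (adjusted p = 0.00137). Its partner CDK1 measured 12.4, 16.1 and 17.1 FPKM against 21.95, 25.3 and 28.8 FPKM, a rise of 0.71 ± 0.09 (adjusted p = 0.00286). CCNB2 rose by 0.86 ± 0.13 (adjusted p = 0.00547), and CCNA2, the cyclin of S phase and G2, by 0.91 ± 0.10 (adjusted p = 0.00214). The kinase and its 3 cyclins thus all passed.

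The Aurora kinases also passed. AURKA, the kinase of the spindle poles, measured 9.34, 14.4 and 12.3 FPKM against 21.9, 23.9 and 28.8 FPKM and rose by 1.001 ± 0.11 (adjusted p = 0.00239). TPX2, which activates it on the spindle, rose by 0.83 ± 0.11 (adjusted p = 0.00363), and AURKB, the kinase of the centromere, rose by 0.79 ± 0.11 (adjusted p = 0.00387). FOXM1, the transcription factor of the G2/M genes, measured 8.97, 8.19 and 7.40 FPKM against 17.3, 11.8 and 14.7 FPKM and rose by 0.75 ± 0.11 (adjusted p = 0.00550).

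MKI67, the Ki-67 antigen used to mark cycling cells, measured 4.83, 4.46 and 4.37 FPKM in number 1 and 8.14, 7.43 and 7.88 FPKM in number 2. It showed little spread between genotypes at each number, and it rose by 0.67 ± 0.09 (adjusted p = 0.00443). TOP2A, topoisomerase IIα, which untangles sister chromatids, measured 8.67, 13.1 and 11.5 FPKM against 19.1, 15.8 and 16.8 FPKM. It rose by 0.61 ± 0.15 (adjusted p = 0.0277), and its numbers were nearer to each other in the clones than in WT. KIF11, the kinesin that separates the spindle poles, rose by 0.53 ± 0.11 (adjusted p = 0.0152), and CENPF, a kinetochore protein, by 0.80 ± 0.14 (adjusted p = 0.00877).

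BUB1B (BUBR1), a checkpoint protein that restrains CDC20, measured 10.4, 9.43 and 11.2 FPKM against 24.9, 16.3 and 15.4 FPKM and rose by 0.78 ± 0.15 (adjusted p = 0.0107). Its WT library numbered 2 stood above both clones. The checkpoint kinase BUB1 measured 4.43, 7.94 and 6.89 FPKM against 9.38, 9.04 and 8.85 FPKM, a difference of 0.47 ± 0.16 that did not pass (adjusted p = 0.0663). CENPE, a kinesin of the kinetochore at 1.498 to 3.21 FPKM, also missed the threshold (0.51 ± 0.16, adjusted p = 0.0505). They were the 2 mitosis genes that did not pass, although neither overlapped between the numbers.

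**Figure D3:**
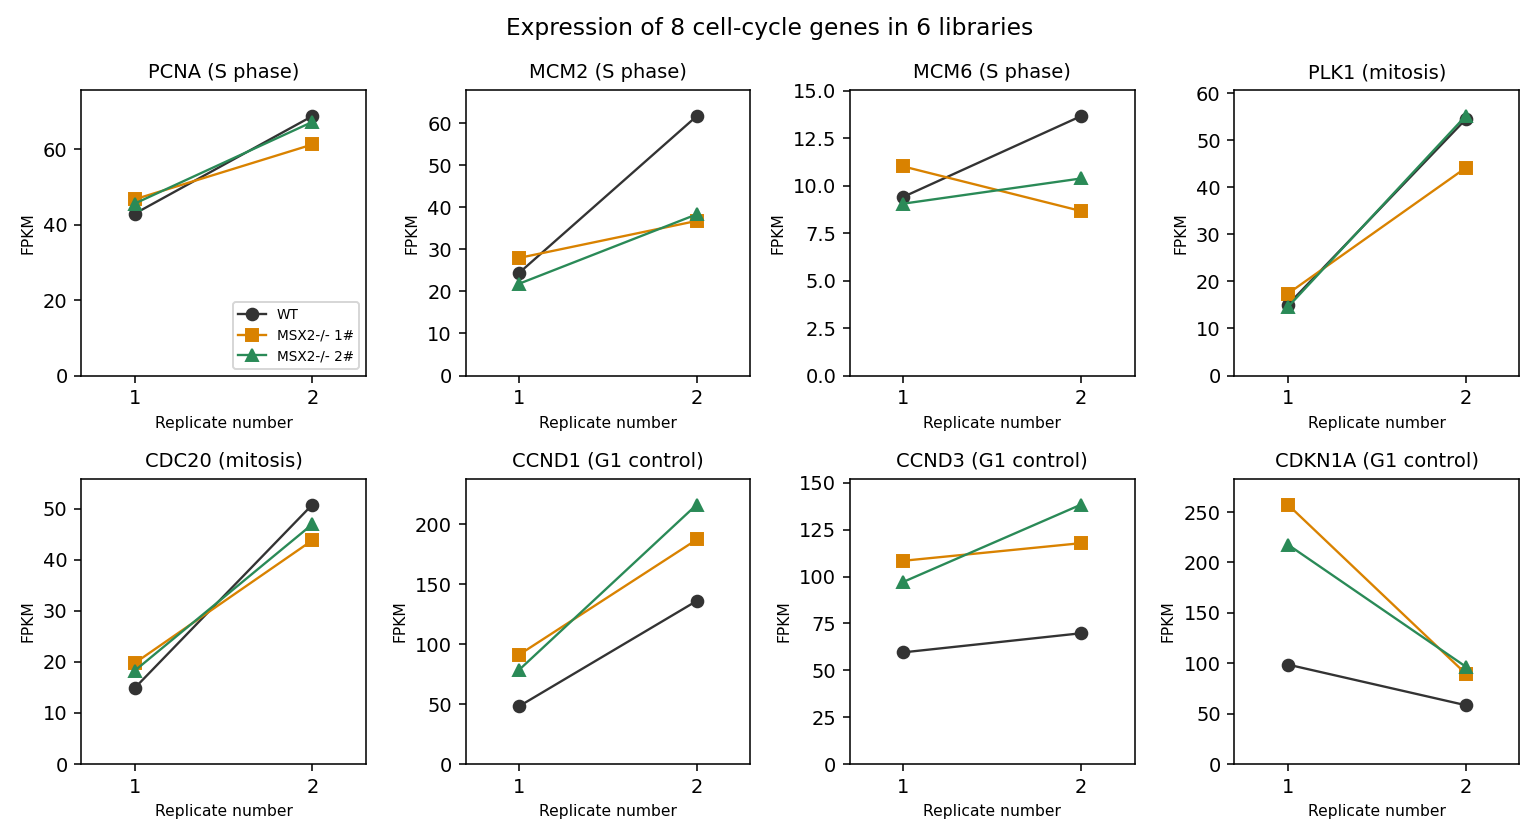
FPKM (y axis, from 0) of 8 genes in the libraries numbered 1 and 2 (x axis), with a line for each of WT, 1# and 2#. PLK1 and CDC20 rise along all 3 lines, CDKN1A falls along all 3, and CCND1, CCND3 and CDKN1A lie lowest in WT at both numbers.

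Among the S phase genes, the MCM2-7 helicase did not move as 1 unit. MCM4 had the largest difference of the 21 genes, with 43.7, 43.2 and 28.5 FPKM in number 1 and 104, 70.7 and 72.2 FPKM in number 2, a rise of 1.08 ± 0.15 (adjusted p = 0.00455). MCM2 measured 24.4, 27.9 and 21.8 FPKM against 61.7, 36.8 and 38.3 FPKM and rose by 0.82 ± 0.17 (adjusted p = 0.0142), with the WT library numbered 2 far above the rest. MCM7 measured 49.7, 52.2 and 52.3 FPKM against 97.5, 77.5 and 82.3 FPKM and rose by 0.72 ± 0.09 (adjusted p = 0.00298). MCM5 rose by 0.56 ± 0.10 (adjusted p = 0.00753) and MCM3 by 0.43 ± 0.07 (adjusted p = 0.00739). MCM6, in contrast, measured 9.42, 11.02 and 9.06 FPKM against 13.7, 8.67 and 10.4 FPKM. Its numbers overlapped, clone 1# was lower in number 2, and the difference of 0.12 ± 0.16 did not pass (adjusted p = 0.581). MCM6 was also the subunit with the lowest level of the 6.

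PCNA, the sliding clamp of the polymerases, measured 42.9, 46.7 and 45.5 FPKM in number 1 and 68.7, 61.2 and 67.2 FPKM in number 2, a rise of 0.54 ± 0.08 (adjusted p = 0.00451). WT and both clones were close to each other at each number. FEN1, the flap endonuclease of lagging-strand synthesis, rose by 0.63 ± 0.10 (adjusted p = 0.00597). Of the genes of nucleotide supply, RRM2, the S phase subunit of ribonucleotide reductase, rose by 0.57 ± 0.10 (adjusted p = 0.00933), and TYMS, thymidylate synthase, by 0.50 ± 0.09 (adjusted p = 0.0106). RRM1, the subunit of the same reductase that is present throughout the cycle, measured 20.0, 18.6 and 19.6 FPKM against 24.1, 19.2 and 24.8 FPKM and did not pass (0.21 ± 0.11, adjusted p = 0.188).

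E2F1, the factor that opens the G1/S program, measured 4.42, 5.40 and 5.65 FPKM against 11.8, 8.30 and 9.66 FPKM and rose by 0.82 ± 0.15 (adjusted p = 0.0107). UHRF1, which carries DNA methylation through replication, measured 13.0, 16.9 and 13.9 FPKM against 34.7, 21.99 and 24.0 FPKM and rose by 0.82 ± 0.18 (adjusted p = 0.0171). In both, the WT library numbered 2 was the highest of the 6. The licensing factor CDC6 rose by 0.54 ± 0.11 (adjusted p = 0.0143), while its partner CDT1 measured 11.6, 15.1 and 16.2 FPKM against 12.5, 14.4 and 17.4 FPKM, a difference of 0.05 ± 0.10 (adjusted p = 0.743). CCNE1, cyclin E1 of the G1/S step, went the other way from 2.295, 2.98 and 3.20 FPKM to 1.42, 1.78 and 2.08 FPKM, a fall of −0.47 ± 0.12 (adjusted p = 0.0283), the 1 S phase gene that passed lower. The remaining S phase genes MCM10, CDC45, GINS2, POLA1 and CCNE2, at 0.957 to 9.09 FPKM in any library, had differences of 0.18 to 0.44 that did not pass (adjusted p = 0.0937 to 0.280).

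The 5 G1 genes did not share a direction. CCND1, cyclin D1, measured 48.2, 91.2 and 78.5 FPKM in number 1 and 136, 187 and 217 FPKM in number 2, a rise of 1.32 ± 0.10 (adjusted p = 0.000998). CDKN1A measured 98.7, 258 and 218 FPKM in number 1 and 58.4, 89.7 and 96.7 FPKM in number 2, a fall of −1.14 ± 0.14 (adjusted p = 0.00277). The cyclin was thus higher, and the inhibitor lower, where the mitotic genes were higher. CDKN1B fell too, by −0.35 ± 0.08 (adjusted p = 0.0240), from 22.2, 17.6 and 17.2 FPKM to 18.8, 12.4 and 13.5 FPKM. CCND3 rose by 0.28 ± 0.08 (adjusted p = 0.0450), and CCND2, at 6.06 to 8.92 FPKM, had a difference of −0.30 ± 0.10 that did not pass (adjusted p = 0.0691).

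The number effect was seen within WT and within each clone, since the libraries numbered 2 were compared with those numbered 1 of the same cells. In WT all 20 mitosis genes were higher in number 2 with a median log2 difference of 1.06, in 1# all 20 with 0.63 and in 2# all 20 with 0.91. For the S phase genes, 20 of 21 were higher in WT (median 0.50), 18 in 1# (0.37) and 20 in 2# (0.55). The median over all tested genes was −0.02, −0.03 and −0.04 in WT, 1# and 2#. PLK1 had a ratio of number 2 to number 1 of 3.63 in WT, 2.54 in 1# and 3.80 in 2#, while BUB1 had 2.12, 1.14 and 1.29. The test of whether the genotype difference changed with the number called 0 of 46 genes in limma, beside 0.0189% of all genes. Before adjustment, 9 of the 46 genes lay below 0.05 in this test, beside 1817 of all 15895 genes. The interaction was negative in 38 of the 46 genes and in 8216 of the 15895 tested, so number 2 minus number 1 was lower in the clones than in WT for these genes. The 9 genes were MCM2, MCM7, UHRF1, E2F1, CDKN1A, TOP2A, BUB1, BUB1B and CDC20, each with an adjusted p of 0.370 or more.

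**Figure D4:**
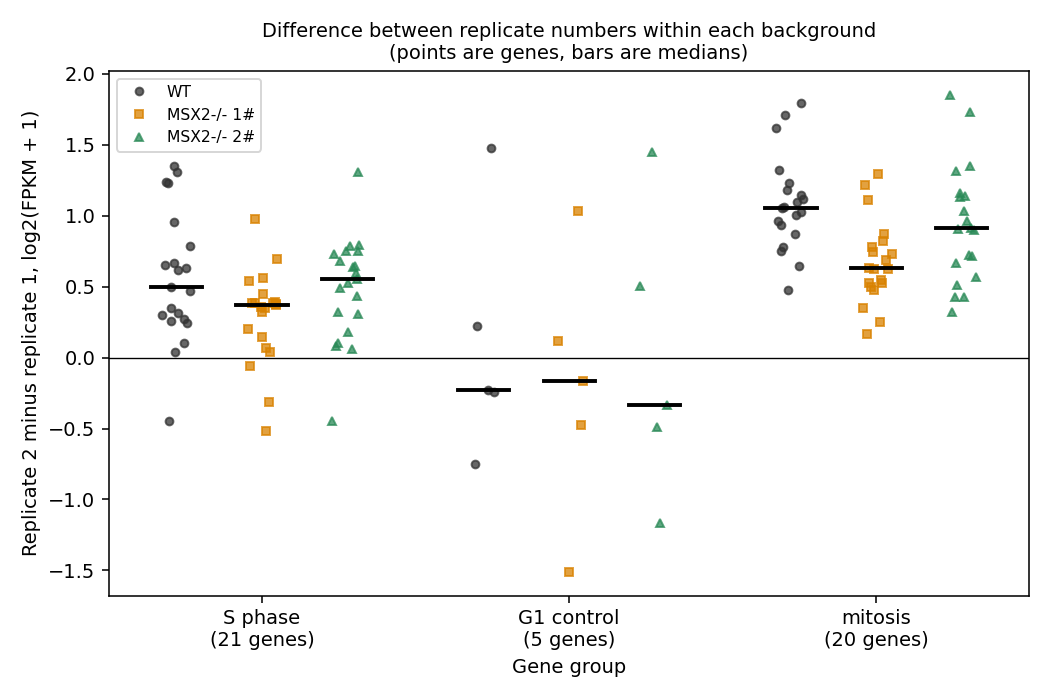
Log2(FPKM + 1) of the library numbered 2 minus that numbered 1 (y axis) for each gene (points) of the S phase, G1 and mitosis groups (x axis), within WT, 1# and 2#, with medians as black bars. Every mitosis point lies above 0, and the medians are 1.06, 0.63 and 0.91.

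The genotype difference was near 0 in the median of the S phase and mitosis genes. In MSX2-/- against WT the median log2 difference was −0.05 for the 21 S phase genes (7 higher, 14 lower), −0.01 for the 20 mitosis genes (9 higher, 11 lower) and 0.68 for the 5 G1 genes, beside 0.01 for all tested genes. PLK1 averaged 34.7 FPKM in WT and 32.8 ± 20.0 FPKM in MSX2-/- cells (SD, n = 4), a difference of −0.03 ± 0.69. Each genotype held both numbers. With the replicate number as a block, PLK1 stayed at −0.03 with an SE of 0.13 (adjusted p = 0.908), PCNA was at 0.00 ± 0.08 (adjusted p = 0.991), MKI67 at −0.09 ± 0.10 (adjusted p = 0.610), TOP2A at 0.12 ± 0.16 (adjusted p = 0.698), CCNB1 at 0.04 ± 0.10 (adjusted p = 0.843) and MCM2 at −0.34 ± 0.18 (adjusted p = 0.287). In fits without the block, PCNA, MCM2, CCNB1, MKI67 and TOP2A changed sign when 1 library was left out, which also unbalances the replicate numbers. PCNA and CCNB1 changed sign with rescaling too. Leaving out libraries with the block was not done for these genes, and PLK1 was not followed through these settings. No direction is therefore given to any of them, PLK1 included.

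With the block, limma called 3 genes higher and 2 lower in MSX2-/- cells, beside 6.11% and 3.74% of all tested genes. The shares of the 46 genes, 6.52% and 4.35%, were near that background, so the count is not a result about these genes as a set, and the values of the 5 genes are given one by one. The 3 higher genes belong to the G1 group. CCND3, cyclin D3, measured 59.6 and 69.8 FPKM in the WT libraries numbered 1 and 2 and 108, 118, 97.1 and 138 FPKM in 1# replicates 1 and 2 and 2# replicates 1 and 2. All 4 MSX2-/- libraries lay above both WT libraries, by 0.82 ± 0.09 with the block (adjusted p = 0.00498), and without it at the same size the adjusted p was 0.0805. CCND1 was higher in each MSX2-/- library than in WT of the matching number, with ratios of 1.76 in number 1 and 1.48 in number 2, a rise of 0.68 ± 0.10 (adjusted p = 0.0133 with the block, 0.758 without). CDKN1A had ratios of 2.41 and 1.60 and rose by 0.96 ± 0.15 (adjusted p = 0.0133 with the block, 0.542 without). Hence the cyclin D1 gene and the CDK inhibitor gene, which went opposite ways with the number, went the same way with genotype.

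The 2 lower genes were CDKN1B and MCM5. CDKN1B measured 22.2 and 18.8 FPKM in WT and 17.6, 12.4, 17.2 and 13.5 FPKM in MSX2-/- libraries, all below WT, a fall of −0.42 ± 0.09 (adjusted p = 0.0372 with the block, 0.469 without). MCM5 measured 22.96 and 40.3 FPKM in WT and 18.2, 23.9, 17.6 and 25.9 FPKM in MSX2-/- libraries, a fall of −0.51 ± 0.10 (adjusted p = 0.0309 with the block, 0.550 without). All 4 MSX2-/- libraries were below WT of their own number in 10 of the 46 genes, beside 21.4% of all tested genes, and above it in 10, beside 23.6%. Those below that did not pass the test were MCM4, CDC45, GINS2, POLA1, MKI67, AURKB, KIF11 and FOXM1, and those above that did not pass were CDC6, CDT1, TYMS, CCNE1, CCNE2, CDK1 and AURKA. Leaving out 1 library ended the blocked calls of CDKN1B (whichever was left out, adjusted p = 0.0818 to 0.160), of MCM5 (0.0714 to 0.139, but 0.0427 without WT replicate 1), of CCND1 (without WT replicate 1, WT replicate 2 or 2# replicate 2, up to 0.108), of CCND3 (without WT replicate 2, 0.0560) and of CDKN1A (without WT replicate 1, 0.0715). Without the filter on low expression, 1 of the 5 blocked calls was left, that of CCND3 (adjusted p = 0.0403).

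**Figure D5:**
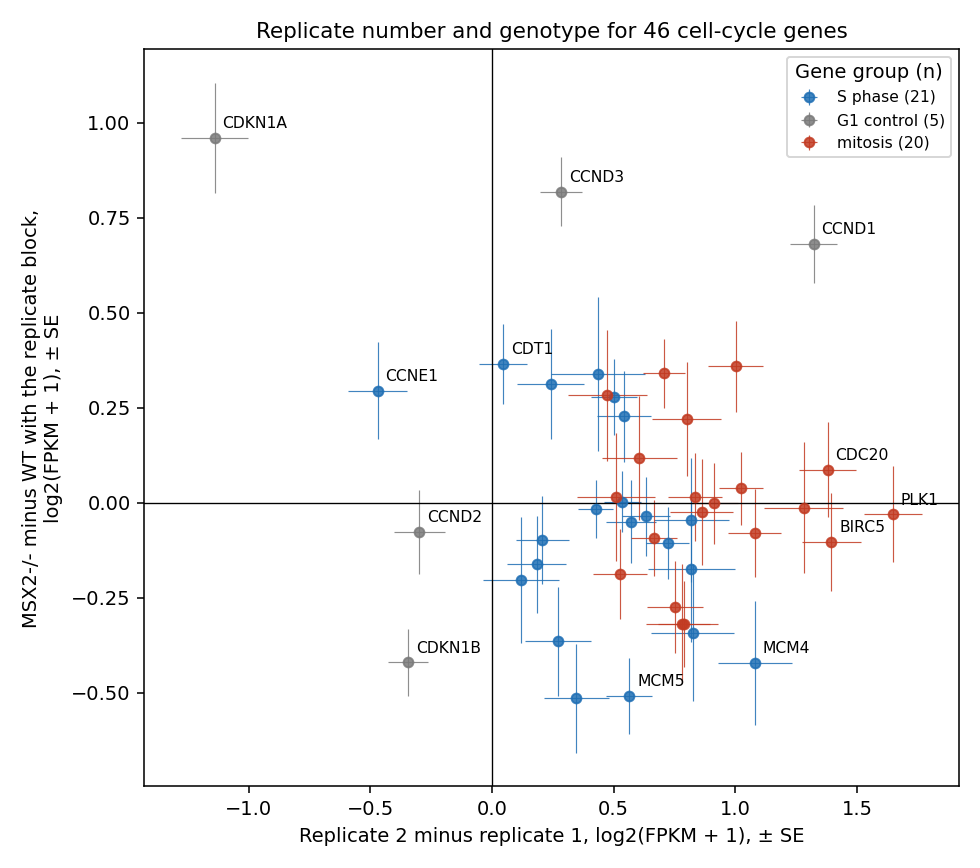
Difference between replicate numbers (x axis) and between MSX2-/- and WT with the replicate block (y axis), both in log2(FPKM + 1) with SE bars, for the 46 genes coloured by group. The 20 mitosis genes lie right of 0 and around 0 in height, and CDKN1A, CCND3 and CCND1 stand at 0.96, 0.82 and 0.68 in height.

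Both clones gave close values. The difference of 2# minus 1# ranged from −0.28 (MCM4) to 0.26 over the 46 genes with a median of 0.00. A fit of WT, 1# and 2# as 3 groups called 0 of 46 genes between the mean of the clones and WT. It called only 4 higher and 2 lower of all 15895 genes, so the 0 says little about the 46. Within number 1 alone the mitosis genes had a median MSX2-/- minus WT difference of 0.11 (14 of 20 higher), and within number 2 alone −0.15 (3 of 20 higher). The G1 median was 0.77 and 0.56, and the S phase median 0.07 and −0.10. Each within-number value rests on 1 WT library and has no test.

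Other genes of the same pathways, from lists written with earlier results of these data known, showed the number difference to different extents. Of 54 spindle and kinetochore genes, limma called 28 higher in number 2 and 0 lower, beside 15.6% and 18.9% of all tested genes. Their median was 0.45, and 35 had an unadjusted p under 0.05, beside 7364 of all 15895 genes. The largest among those called were GTSE1, a microtubule-binding G2 protein, from 6.63, 8.12 and 6.81 FPKM to 20.9, 16.0 and 15.0 FPKM (1.15 ± 0.14, adjusted p = 0.00295), CDCA3 (1.12 ± 0.17, adjusted p = 0.00512), CDCA8, the borealin of the passenger complex that BIRC5 belongs to (0.99 ± 0.11, adjusted p = 0.00232), and RACGAP1, a cytokinesis protein (0.89 ± 0.18, adjusted p = 0.0143). Of 42 origin and fork genes, 12 were called higher and 1 lower, with a median of 0.13. RFC3, a clamp loader subunit, went from 4.17, 4.06 and 3.88 FPKM to 7.78, 10.01 and 9.02 FPKM (0.97 ± 0.11, adjusted p = 0.00264), and ORC5 of the origin recognition complex rose by 0.97 ± 0.14 (adjusted p = 0.00470). Of the other clamp loader subunits, RFC5 rose by 0.44 ± 0.12 (adjusted p = 0.0320), and RFC1, RFC2 and RFC4 had differences of 0.00, 0.14 and −0.04 that did not pass. CLSPN (claspin) rose by 0.71 ± 0.14 (adjusted p = 0.0135), and CHAF1B, of chromatin assembly, fell by −0.63 ± 0.15 (adjusted p = 0.0209).

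Of 36 genes of CDK, RB and E2F control, 34 passed the filter (CDKN2C and E2F2 did not). Of these, 10 were called higher in number 2 and 3 lower, beside 15.6% and 18.9% of all tested genes, and the median was 0.23. CDC25A, the phosphatase that activates CDK2, rose by 1.11 ± 0.14 (adjusted p = 0.00306), the inhibitor CDKN2B (p15) by 0.998 ± 0.15 (adjusted p = 0.00486) and MYBL2 (B-MYB) by 0.73 ± 0.18 (adjusted p = 0.0277), and the E2F partner TFDP2 fell by −0.76 ± 0.11 (adjusted p = 0.00501). In MSX2-/- against WT, limma without the block called 0 of these 34, 0 of the 42 and 0 of the 54 genes. Of all tested genes 0.963% were called higher and 0.321% lower, so these counts of 0 say little about the lists. An unadjusted p under 0.05 was found for 1, 3 and 3 genes of the 3 lists, beside 1873 of all 15895 genes. With the block the calls were CDKN1C (p57, 1.14 ± 0.19, adjusted p = 0.0182), CDKN2B (0.84 ± 0.15, adjusted p = 0.0245), WEE1, the kinase that holds CDK1 inactive (0.39 ± 0.09, adjusted p = 0.0460), CKS2 (0.52 ± 0.07, adjusted p = 0.00893), CDCA7 (−0.59 ± 0.12, adjusted p = 0.0355) and LIG1, DNA ligase I (−0.37 ± 0.08, adjusted p = 0.0464). These are 4 higher and 2 lower of 130 genes (3.08% and 1.54%), under the shares of all tested genes with the block given above. Of the CDK inhibitor genes tested, CDKN1A, CDKN1C and CDKN2B were called higher with the block and CDKN1B lower, while CDKN2A (0.65 ± 0.26, adjusted p = 0.175), CDKN2D (−0.0006 ± 0.11, adjusted p = 0.998) and CDKN3 (0.08 ± 0.11, adjusted p = 0.703) were not called.

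The 25 p53 target genes, listed because CDKN1A is one, were the 1 list of these 4 with genotype calls also without the block. With the number, 11 were called lower in number 2 and 2 higher, beside 18.9% and 15.6% of all tested genes, with a median of −0.30. BTG2 went from 28.0, 53.3 and 47.6 FPKM to 10.1, 22.8 and 23.9 FPKM (−1.18 ± 0.10, adjusted p = 0.00114), and BBC3 (PUMA) fell by −0.87 ± 0.10 (adjusted p = 0.00220), DDB2 by −0.83 ± 0.06 (adjusted p = 0.000998) and TP53INP1 by −0.77 ± 0.09 (adjusted p = 0.00274). With genotype, 23 of 25 had a positive difference, beside 8149 of all 15895 genes, with a median of 0.30. Without the block 2 were called higher, PHLDA3 (0.72 ± 0.11, adjusted p = 0.0404) and FDXR (0.62 ± 0.10, adjusted p = 0.0496). Of all tested genes, 0.963% were called higher and 0.321% lower in that fit. With the block limma called 9 higher and 0 lower, beside 6.11% and 3.74% of all tested genes. An unadjusted p under 0.05 was found for 16, beside 4247 of all 15895 genes. Among the 9 were BTG2 (0.98 ± 0.10, adjusted p = 0.00431) and GADD45A, at 56.6 and 55.3 FPKM in WT and 126, 86.8, 114 and 86.2 FPKM in MSX2-/- libraries (0.85 ± 0.11, adjusted p = 0.00791). Without the block limma gave an adjusted p of 0.541 for BTG2 and 0.103 for GADD45A. The calls of this list were not followed through other filters or through leaving out libraries. BTG2 thus followed the pattern of CDKN1A, lower in number 2 and higher in MSX2-/- cells, while PHLDA3 and FDXR had number differences of 0.02 and 0.04.

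Number differences overlapped between genes with and without a motif. The 10 genes with a CHR had a median number difference of 0.74 (0.21 to 1.65) and the 26 without one 0.50 (−1.14 to 1.28). The 13 genes with an E2F site had a median of 0.54 (0.05 to 0.82) and the 23 without one 0.61 (−1.14 to 1.65). These splits largely repeat the gene groups. Of the 10 genes with a CHR 9 are mitosis genes, and of the 13 with an E2F site 12 are S phase genes. Among mitosis genes, differences ran from 0.53 (KIF11) to 1.65 (PLK1) with a CHR. Without one they ran from 0.47 (BUB1) to 1.28 (KIF20A). A link of motif and difference within a group was not tested. Counting without strand could mix genes: in the GENCODE v29 annotation an exon of a gene on the other strand overlaps 15 of the 46 genes, PLK1, KIF20A, CCNA2, FOXM1, MCM2, MCM7, TYMS, CCND1, CCND3 and CDKN1A among them, and an exon of another gene on the same strand overlaps 4 (BUB1B, CCND2, FEN1 and RRM2). Whether strand was used in the counting is not given in the sources used here.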

How the data were processed

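RNA-seq of 6 libraries was read from a deposited table of FPKM values, made by the authors with 1 column per library. The submitters' processing notes name hg19, BWA, Bowtie and RSEM, and the series' design text names TopHat and Cufflinks. Versions, annotation and strand are not given in the sources used here. The growth protocol speaks of HAND1 overexpression, which the study does not describe. Clones go by the column names, which differ from the labels' numbers. The table holds no counts.

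Values were tested as log2(FPKM + 1), which understates changes of low genes, for 15895 genes (mean over the libraries 0.5 FPKM or more), using limma 3.58.1 in R 4.3.3 (trend, two-sided, Benjamini-Hochberg over all genes, threshold 0.05). MSX2-/- was compared with WT both ignoring the replicate number and with it as a blocking term, and number 2 with number 1 with genotype in the model. The numbers were taken as pairing the libraries, since the difference of number 2 minus number 1 correlated across genes between WT and 1# (r = 0.508), WT and 2# (0.540) and 1# and 2# (0.636). The fits were tested on simulated data. Alternatives were the pseudocount, filters, rescaling, no trend, 3 groups and leaving out each library. Leaving out libraries with the block was added after seeing the data.

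Full statistics were set for genes past the threshold in any fit and for PCNA, MCM2, CCND1, CDKN1A, MKI67, TOP2A and CCNB1, and up to 4 called genes with the largest differences were named from each other list. RFC1, RFC2, RFC4, RFC5, CDKN2A, CDKN2D and CDKN3 were named after their values were seen. The 46 genes and all lists were chosen with earlier results of these data known.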

Additional observations from a re-analysis of the deposited data

Results flagged for a closer look

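Among the 46 genes, the 4 MSX2-/- libraries were searched for 1 library far from the other 3. RRM1, the constitutive ribonucleotide reductase subunit, was at 24.81 FPKM in 2# replicate 2 and at 18.6 to 19.6 FPKM in the other 3 MSX2-/- libraries, a gap above the 95% critical value of Dixon's test. Chance flags about 1 in 20 groups of like samples, but these 4 libraries hold both replicate numbers, so that rate is not one for this search.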

How the results depend on the processing

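The number contrast kept its direction for the 35 genes called, under every alternative tried. Between 26 and 33 of the 46 genes were called higher and 9 to 12 of the S phase and 16 to 19 of the mitosis genes, and called lower were 3, or 2 with no filter or in the MSX2-/- libraries only, 0 with no genotype in the model, and 1 to 2 with 1 library left out (1 without any 1 of the MSX2-/- libraries). The genotype contrast depended on the pairing: 0 genes were called in every fit without the replicate block, 3 higher and 2 lower with the block (also with median-of-ratios rescaling), 1 higher and 0 lower with the block and no filter, and 1 to 3 higher and 0 to 1 lower with the block and 1 library left out (1 higher without WT replicate 1 or WT replicate 2). Over all genes the counts called higher and lower were 153 and 51 without the block and 971 and 595 with it, 4 and 2 with 3 groups and 65 and 60 with no filter. Without the block, leaving out a WT library leaves 1 WT library, assumed to vary as the others do, with a single number. The median genotype difference then ran from −0.36 (without WT replicate 1) to 0.29 (without WT replicate 2) for S phase, from −0.52 to 0.56 for mitosis and, over all 6 libraries left out in turn, from 0.045 to 0.78 for G1 genes. Leaving out each library without the block, MCM2 ran from −0.99 to 0.31, PCNA from −0.33 to 0.34 and CCND1 from −0.0595 to 1.42. In the same fits CCNB1 ran from −0.52 to 0.60, MKI67 from −0.42 to 0.23 and TOP2A from −0.41 to 0.64. PCNA was at −0.023 with median-of-ratios rescaling (with or without the block) and at −0.058 when rescaled to a common sum, and CCNB1 at −0.021 with the latter. The precision is limited by 2 WT libraries, and the depth in reads is unknown.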
